A study of Mus musculus with 16 samples.

Results

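The Egr and Nr4a early transcription factors were followed in cells of the mouse olfactory mucosa, the tissue that lines the nasal cavity and holds the olfactory sensory neurons. The set was fixed by symbol, with earlier results of these data known: Egr1, Egr2, Egr3, Egr4, Nr4a1, Nr4a2, Nr4a3, Npas4, Arc and Crem. Of these 10 genes, 9 had at least 1 probeset on the array, among 19505 gene symbols in all, and they were read by 11 probesets of 22206. Egr3 had 3 probesets, called A, B and C here, each annotated with a different Egr3 transcript, and each was tested on its own. Crem, which encodes cAMP-responsive activators and repressors, had no probeset under its symbol or gene ID and was not analysed here.

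All mice were S100a5-tauGFP reporter mice of both sexes, aged 7 to 12 weeks, in which green fluorescent protein (GFP) was tied to S100a5. S100a5 encodes a calcium-binding protein of olfactory sensory neurons whose expression follows neuronal activity. The 24 mice were kept singly for 40 h in chambers with clean air at 3.1 L per min. From 26 h on they received 10 s pulses every 20 min, either of an odorant or of filtered air as vehicle. The labels of the samples call the odorant bourgeonal while the title of the series says indole, so it is called the odorant here. Dissociated mucosa was sorted by fluorescence, and each Clariom S array measured RNA from the cells of 3 pooled mice. The 4 groups of 4 arrays were GFP+ cells of odorant mice, GFP+ cells of vehicle mice, GFP- cells of odorant mice and GFP- cells of vehicle mice. The GFP+ and GFP- arrays with the same treatment and replicate number were taken as the 2 fractions of 1 pool of mice, which gives 8 pools for 24 mice. The label GFP- covers every unlabelled cell of the mucosa, so that fraction is not 1 cell type. Replicate arrays carry separate pools, and a group holds 4 of them.

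Early, or immediate early, genes are transcribed within minutes of a stimulus from factors that are already in the cell. Calcium and cAMP signals act on them largely through the factor CREB, which binds cAMP response elements (CRE), and through serum response factor, which binds CArG boxes. The Egr proteins are zinc-finger factors and the Nr4a proteins are orphan nuclear receptors, and both families switch on later genes. They are known from stimulated neurons and equally from growth-factor-treated cells, dividing cells and activated blood cells. In olfactory sensory neurons odorants raise cAMP and calcium.

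The promoters of Egr2, Nr4a1, Nr4a2 and Nr4a3, from RefSeq, are shown because these genes were low together in the same cells. Each is the 250 bases before an annotated start in build GRCm38.p6, read 5′ to 3′ on the strand of the gene. Capitals mark the short CRE motif (TGACG, or CGTCA on the other strand) and the CArG box. The positions are chr10:67537619-67537868 on the plus strand for Egr2, chr15:101266596-101266845 on the plus strand for Nr4a1, chr2:57124004-57124253 on the minus strand for Nr4a2 and chr4:48045055-48045304 on the plus strand for Nr4a3.
Egr2: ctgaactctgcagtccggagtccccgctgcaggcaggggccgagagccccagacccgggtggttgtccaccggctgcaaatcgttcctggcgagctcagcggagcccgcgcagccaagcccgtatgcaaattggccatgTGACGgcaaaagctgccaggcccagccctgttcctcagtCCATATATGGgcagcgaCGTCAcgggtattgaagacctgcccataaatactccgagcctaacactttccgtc
Nr4a1: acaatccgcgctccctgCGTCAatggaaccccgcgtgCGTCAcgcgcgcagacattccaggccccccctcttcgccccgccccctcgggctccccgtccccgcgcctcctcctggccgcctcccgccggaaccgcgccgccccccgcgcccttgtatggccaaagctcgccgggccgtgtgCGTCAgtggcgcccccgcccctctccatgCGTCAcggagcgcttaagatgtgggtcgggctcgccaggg
Nr4a2: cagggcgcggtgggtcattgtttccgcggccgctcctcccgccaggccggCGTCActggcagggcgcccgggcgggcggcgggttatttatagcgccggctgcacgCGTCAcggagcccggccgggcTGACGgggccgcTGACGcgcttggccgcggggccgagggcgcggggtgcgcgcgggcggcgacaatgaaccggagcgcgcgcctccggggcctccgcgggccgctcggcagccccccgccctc
Nr4a3: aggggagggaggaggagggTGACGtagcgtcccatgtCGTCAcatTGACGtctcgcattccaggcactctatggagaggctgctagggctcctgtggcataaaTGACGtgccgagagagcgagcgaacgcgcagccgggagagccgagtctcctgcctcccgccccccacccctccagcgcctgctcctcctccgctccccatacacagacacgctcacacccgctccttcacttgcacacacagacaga
Nr4a1, Nr4a2 and Nr4a3 each held 4 short CRE motifs, and this Egr2 window held 2 of them with a CArG box between. Egr2 has 5 annotated windows, of which 3 overlap and hold the same matches, and the first of those 3 is printed. Of the other 2 Egr2 windows, 1 held a CArG box and 0 short CRE motifs, and 1 held no match at all. Among 32851 windows of the same length over all genes, 17.8% held at least 1 short CRE motif, 3.9% at least 2 and 0.137% at least 4. A CArG box was found in 1.47% of them. The full CRE (TGACGTCA), found in 1.55% of all windows, and the NBRE bound by Nr4a proteins (AAAGGTCA, either strand), found in 1.34%, had no match in the windows of the members. The Egr site (GCGTGGGCG or GCGGGGGCG, either strand), found in 3.06% of all windows, had 1 match, in the Nr4a1 window 60 bases before the start. Egr4 and Npas4, whose RNA was not measured above background in these cells, held 2 short CRE motifs each. No window is shown for Egr1, Egr3, Arc and Crem. A match of letters is a description of the sequence and was not tested for binding.

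The arrays gave the following frame. The background level of an array was taken from its 23 antigenomic probesets, built to match no mouse gene, at their 95th percentile. It lay between 6.57 and 6.87 on the log2 signal scale, and between 46.7% and 50.9% of gene probesets exceeded it. A group is called at background for a probeset when none of its arrays, or not the mean of the group, exceeded that level. S100a5 averaged 15.99 ± 0.31 in GFP+ and 14.85 ± 0.28 in GFP- cells of odorant mice, and 15.97 ± 0.26 in GFP+ and 15.04 ± 0.15 in GFP- cells of vehicle mice (SD, n = 4 each). Omp, the olfactory marker protein of mature neurons, averaged between 18.59 and 18.69 in all 4 groups, so both fractions carried the RNA of mature olfactory neurons. Over all probesets limma called 793 higher and 1742 lower in GFP+ than in GFP- cells of odorant mice, and 1723 higher and 2213 lower in vehicle mice. These splits moved with the scaling of the arrays: quantile normalization gave 1266 higher and 1662 lower with odorant, and 2544 higher and 2034 lower with vehicle. Subtraction of each array's median gave 7757 higher and 1520 lower with odorant, and 10363 higher and 1687 lower with vehicle. That subtraction moved the median difference of all probesets to 0.42 with odorant, against 0.10 as deposited, and to 0.45 with vehicle, against 0.08 as deposited.

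Egr1, Egr2, Nr4a1, Nr4a2 and Nr4a3 were lower in GFP+ than in GFP- cells in both treatments. With odorant the signal was 43.1-fold lower for Egr1 and 7.09-fold lower for Nr4a1. It was at least 66.4-fold lower for Egr2, with the 2 of 4 GFP+ arrays under background set at their background level. Nr4a2 and Nr4a3 were at background in GFP+ cells and above it on all GFP- arrays, though Nr4a3 in odorant pool 3 (6.64) was level with background (6.63). Limma called 6 of the 11 probesets lower and 0 higher with odorant, where 7.84% of all probesets were called lower, 3.57% higher and 11.4% in either direction. With vehicle it called 7 of 11 lower and 0 higher, where 9.97% of all were called lower, 7.76% higher and 17.7% in either direction. The median difference of the 11 probesets was -1.21 with odorant and -1.36 with vehicle, against medians of 0.1 and 0.08 over all probesets. The middle probeset in each case is Egr3 probeset A, at background in both fractions, so the median gives no measured size. In a bulk sample such as these, fewer cells that carry an RNA and less of that RNA per cell cannot be told apart.

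Among the Egr genes, Egr1, which encodes the zinc-finger factor also called Zif268, was above background on all 16 arrays. With odorant its log2 signal was 8.45, 7.83, 8.48 and 8.29 in the GFP+ pools 1 to 4, against 13.74, 13.74, 13.52 and 13.76 in the GFP- pools. With vehicle it was 8.15, 8.64, 8.14 and 9.45 in the GFP+ pools, against 13.61, 13.54, 13.72 and 13.06 in the GFP- pools. Every GFP+ array lay below every GFP- array, and vehicle pool 4 held both the highest GFP+ and the lowest GFP- value. The difference was -5.43 on the log2 scale (SE 0.17, limma adjusted p = 1.4e-08) with odorant, and -4.89 (SE 0.28, adjusted p = 1.5e-06, 29.6-fold lower) with vehicle. Within single pools the Egr1 difference lay between -5.91 and -5.04 with odorant and between -5.58 and -3.61 with vehicle.

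Egr2, known for its part in myelination, hindbrain patterning and immune cells, had the largest measured fold between the fractions among the members. With odorant its log2 signal was 6.44, 7.15, 6.39 and 7.27 in the GFP+ pools, against 13.44, 12.36, 13.01 and 13.30 in the GFP- pools. With vehicle it was 6.33, 6.79, 6.95 and 6.89 in the GFP+ pools, against 12.65, 12.58, 12.54 and 12.64 in the GFP- pools. The GFP+ values straddled the background level, with 2 of 4 arrays above it under odorant and 3 of 4 under vehicle, while the GFP- values did not come near it. As deposited, the difference was -6.22 (SE 0.28, limma adjusted p = 1.3e-07, 74.3-fold lower) with odorant, and -5.86 (SE 0.16, adjusted p = 1.8e-08, 58.2-fold lower) with vehicle. With the vehicle array under background at its level, Egr2 was at least 55.1-fold lower. The 4 vehicle GFP- pools spread by only 0.054 (SD), against 0.48 for the GFP- pools given the odorant.

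Egr3, a paralogue that often follows Egr1 in neurons and lymphocytes, was close to the limit of detection. Probeset A stayed between 2.62 and 4.73 on all 16 arrays, below background in every group, although limma called it lower in GFP+ cells in both treatments (adjusted p = 0.0017 with odorant and 0.0014 with vehicle). Its values give no fold, and they are the reason why the count of called probesets exceeds that of the measured genes. Probeset B was above background on 6 of 16 arrays, all of them GFP-. It read 6.83, 6.10, 6.20 and 6.34 in the GFP+ pools given odorant, against 7.81, 6.61, 7.04 and 7.16 in the GFP- pools. It read 5.26, 6.29, 5.98 and 6.18 in the GFP+ pools given vehicle, against 7.28, 6.34, 7.33 and 7.23 in the GFP- pools. The fractions overlapped with odorant and were separated with vehicle only by the narrow gap between 6.29 and 6.34. Its GFP+ signal was lower by at least 1.31-fold in each treatment. For the values as deposited, the limma adjusted p was 0.076 with odorant, 0.0094 with the pool as a block, and 0.018 with vehicle. Without vehicle replicate 1, 3 or 4 the vehicle adjusted p was 0.1, 0.092 or 0.057, so that call rests on each of these pools. Probeset C exceeded background on 3 of 16 arrays and was at background in all 4 groups. Only B and C had any value above background. Their identifiers name them as unmapped, while that of A carries a chromosome.

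Egr4, the remaining Egr gene, was between 3.87 and 4.66 on all 16 arrays, below background throughout.

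**Figure D1:**
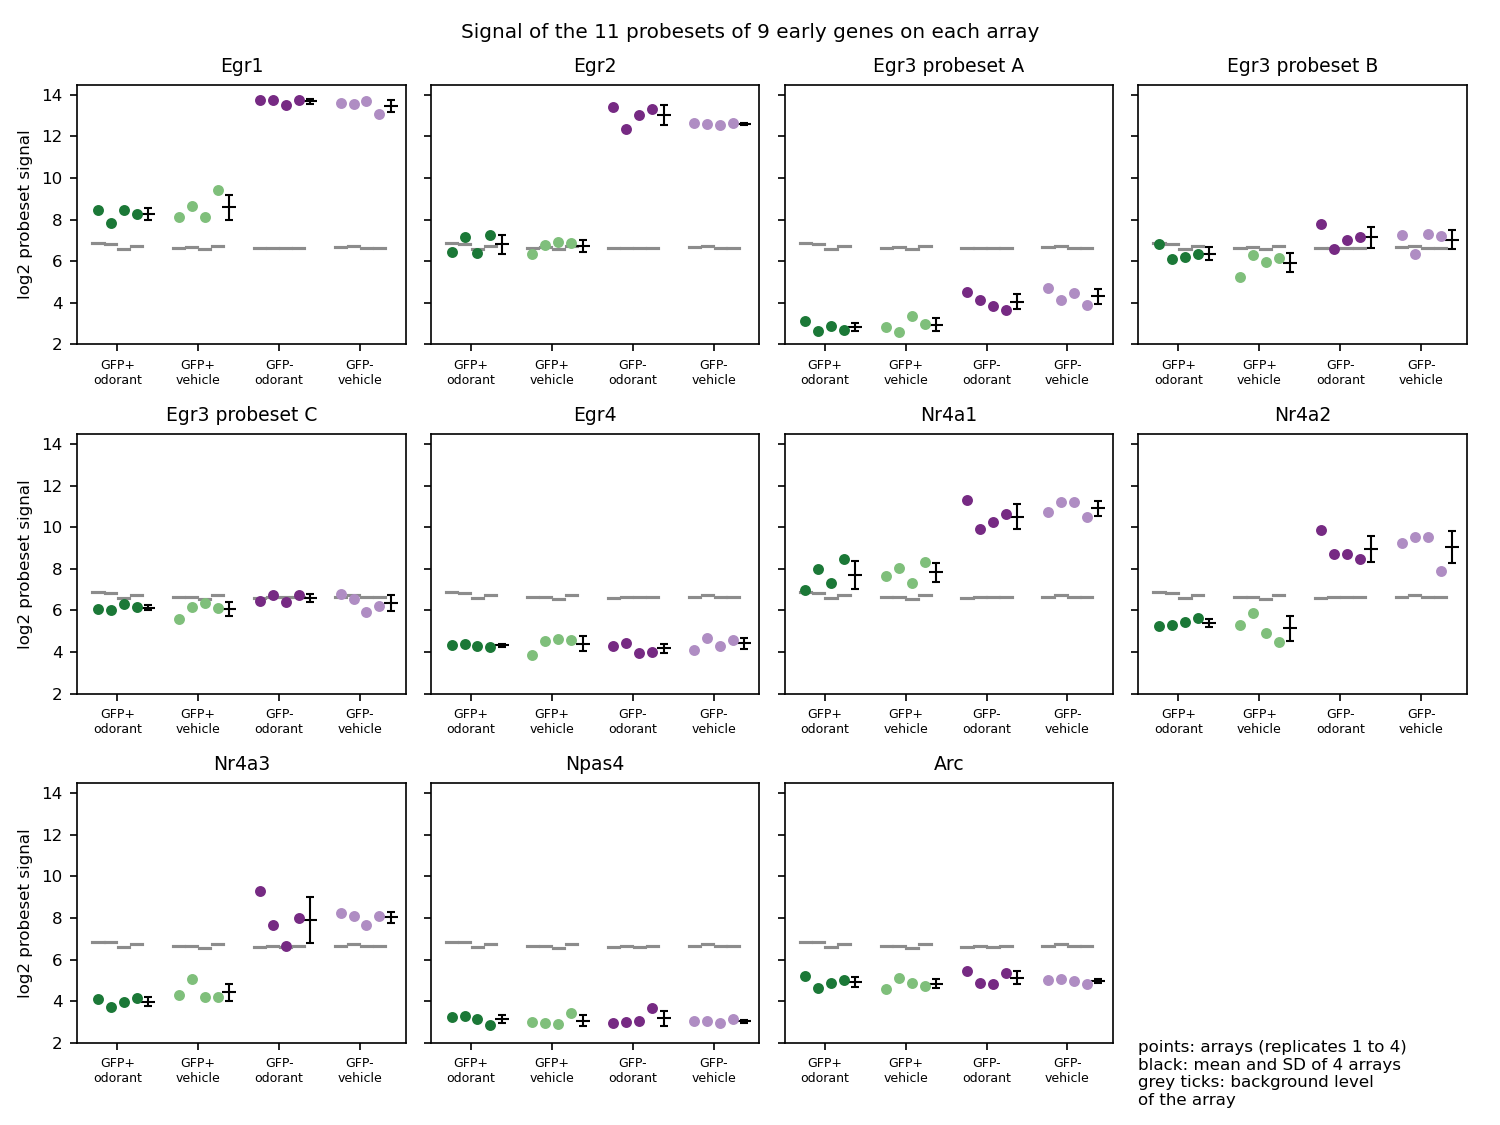
Log2 signal (vertical axis) of each of the 11 probesets on the 16 arrays, by group along the horizontal axis, with array points, mean and SD (n = 4) and the background level of each array. Egr1, Egr2, Nr4a1, Nr4a2 and Nr4a3 are low in both GFP+ groups and high in both GFP- groups, while Egr4, Npas4, Arc and Egr3 probeset A stay below background on every array.

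Among the Nr4a receptors, Nr4a1, also called Nur77 and a usual reporter of recent antigen-receptor or calcium signalling, was above background on all 16 arrays. With odorant its log2 signal was 6.98, 7.97, 7.32 and 8.48 in the GFP+ pools, against 11.29, 9.90, 10.23 and 10.63 in the GFP- pools. With vehicle it was 7.64, 8.04, 7.30 and 8.35 in the GFP+ pools, against 10.72, 11.20, 11.21 and 10.50 in the GFP- pools. The fractions did not overlap, and GFP+ cells kept a signal above background in every pool. The difference was -2.83 (SE 0.36, limma adjusted p = 0.00026) with odorant, and -3.08 (SE 0.25, adjusted p = 1.3e-05, 8.43-fold lower) with vehicle. Within pools given the odorant the difference reached from -4.31 to -1.93 (SD 1.1), and pool 1 with the largest difference held the lowest GFP+ and the highest GFP- value.

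Nr4a2, also called Nurr1 and required for midbrain dopamine neurons, was above background on 8 of 16 arrays, exactly the GFP- ones. With odorant its log2 signal was 5.26, 5.28, 5.45 and 5.65 in the GFP+ pools, against 9.85, 8.72, 8.71 and 8.47 in the GFP- pools. With vehicle it was 5.29, 5.88, 4.92 and 4.48 in the GFP+ pools, against 9.23, 9.52, 9.54 and 7.92 in the GFP- pools. Even the lowest GFP- array, vehicle pool 4, stood above its background, and no GFP+ array did. With odorant the GFP+ signal of Nr4a2 was thus lower by at least 4.5-fold (limma adjusted p = 6.1e-06) and at least 5.28-fold lower with vehicle (adjusted p = 5.2e-05). These folds were taken against the background level in place of the GFP+ values beneath it. The adjusted p tests the values as deposited, and the bounds were not tested.

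Nr4a3, also called Nor1, gave the same division of arrays, 8 of 16 above background and all of them GFP-. With odorant its log2 signal was 4.13, 3.70, 3.95 and 4.14 in the GFP+ pools, against 9.31, 7.68, 6.64 and 7.98 in the GFP- pools. With vehicle it was 4.29, 5.05, 4.18 and 4.20 in the GFP+ pools, against 8.25, 8.12, 7.66 and 8.11 in the GFP- pools. The GFP- pools given the odorant were spread widely, with pool 3 at 6.64 against a background level of 6.63 on that array and pool 1 far above the rest. With odorant the GFP+ signal of Nr4a3 was lower by at least 2.2-fold (limma adjusted p = 9.9e-05). With vehicle it was at least 2.61-fold lower (limma adjusted p = 1.9e-06). Each adjusted p tests the values as deposited and not the bound.

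**Figure D2:**
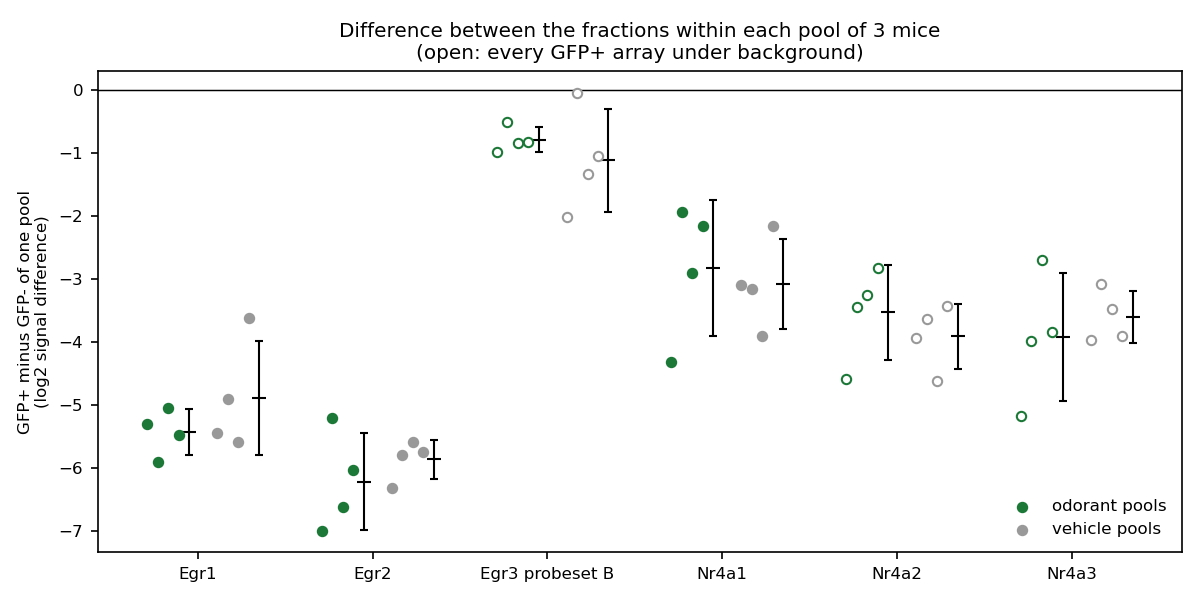
Difference in log2 signal between the GFP+ and the GFP- array of each pool (vertical axis) for the 6 probesets above background on at least 4 arrays, odorant pools left of vehicle pools, with mean and SD of 4 pools. Points of Egr1, Egr2 and Nr4a1 lie between -6.99 and -1.93. The open points of Egr3 probeset B, Nr4a2 and Nr4a3 use GFP+ values under background and are no measured size. The same holds for the filled Egr2 points of odorant pools 1 (-6.99) and 3 and of vehicle pool 1.

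Npas4 and Arc, which serve in the brain as markers of recently active neurons, were not measured above background in either fraction. Npas4, a factor induced by calcium entry, read 2.85 to 3.27 in GFP+ and 2.97 to 3.69 in GFP- cells of odorant mice. In vehicle mice it read 2.89 to 3.45 in GFP+ and 2.97 to 3.13 in GFP- cells. Arc, which encodes a synaptic protein that binds the cytoskeleton and is not a transcription factor, read 4.64 to 5.21 in GFP+ and 4.82 to 5.44 in GFP- cells of odorant mice. In vehicle mice Arc read 4.60 to 5.12 in GFP+ and 4.83 to 5.05 in GFP- cells. For both genes the ranges of the fractions overlapped in each treatment, and a signal under background leaves the RNA level undetermined below that limit. In all, 5 of the 11 probesets were at background in both fractions in each treatment. The fractions did not overlap at 7 of 11 probesets in each treatment, where 16.9% of all probesets did not overlap with odorant and 22.9% with vehicle.

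The odorant was set against vehicle in GFP+ cells to ask which genes a 14 h odour exposure changed in the labelled neurons. No member passed the test: limma called 0 of 11 probesets, and 0 of 11 had an unadjusted p under 0.05. Of all 22206 probesets 0% were called in this comparison, and 848 had an unadjusted p under 0.05. Of the 11 probesets, 8 were at background in both GFP+ groups, which leaves Egr1, Egr2 and Nr4a1. Of these, Egr2 lay at the edge of detection, with 2 odorant arrays and 1 vehicle array under background. A lower Egr2 level could thus hardly have been seen. Egr1 averaged 8.26 ± 0.30 with odorant and 8.60 ± 0.62 with vehicle (SD, n = 4 each), so the odorant differed from vehicle by -0.34 (95% interval -0.96 to 0.29). Egr2 averaged 6.81 ± 0.46 with odorant and 6.74 ± 0.28 with vehicle, differing by 0.07 (-0.44 to 0.59). Nr4a1 averaged 7.69 ± 0.67 with odorant and 7.83 ± 0.46 with vehicle, differing by -0.14 (-0.86 to 0.58). All 3 intervals span 0. The groups overlapped at every probeset but that of Nr4a3, which was at background in both, and 2.3% of all probesets did not overlap.

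In GFP- cells, too, limma called 0 of 11 probesets, with 0 of 11 at an unadjusted p under 0.05. Of all probesets 0% were called, and 1520 had an unadjusted p under 0.05. Egr1 averaged 13.69 ± 0.11 with odorant and 13.48 ± 0.29 with vehicle (SD, n = 4 each), differing by 0.21 (95% interval -0.17 to 0.59). Egr2 averaged 13.03 ± 0.48 with odorant and 12.60 ± 0.054 with vehicle, differing by 0.42 (-0.06 to 0.91). Both Egr genes were nominally higher with odorant, by less than their intervals can separate from 0. Among the receptors, Nr4a1 averaged 10.51 ± 0.60 with odorant and 10.91 ± 0.35 with vehicle, differing by -0.39 (-1.03 to 0.24). Nr4a2 averaged 8.94 ± 0.62 with odorant and 9.05 ± 0.77 with vehicle, differing by -0.11 (-0.97 to 0.74). Nr4a3 averaged 7.9 ± 1.1 with odorant and 8.04 ± 0.26 with vehicle, differing by -0.13 (-1.1 to 0.84). The intervals of Nr4a2 and Nr4a3 are the widest of these. The groups overlapped at all 11 probesets, where 4.16% of all probesets did not overlap.

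The effect of the odorant in GFP+ cells was not shown to differ from that in GFP- cells for any member. Limma's interaction called 0 of 11 probesets and 0% of all probesets, of which 1093 had an unadjusted p under 0.05. The interaction was -0.54 for Egr1 (95% interval -1.28 to 0.19), -0.35 for Egr2 (-1.06 to 0.36) and 0.25 for Nr4a1 (-0.75 to 1.25). It was 0.38 for Nr4a2 (-0.7 to 1.46) and -0.32 for Nr4a3 (-1.44 to 0.81), both with GFP+ groups at background. The Egr2 value also takes in some GFP+ arrays under background.

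**Figure D3:**
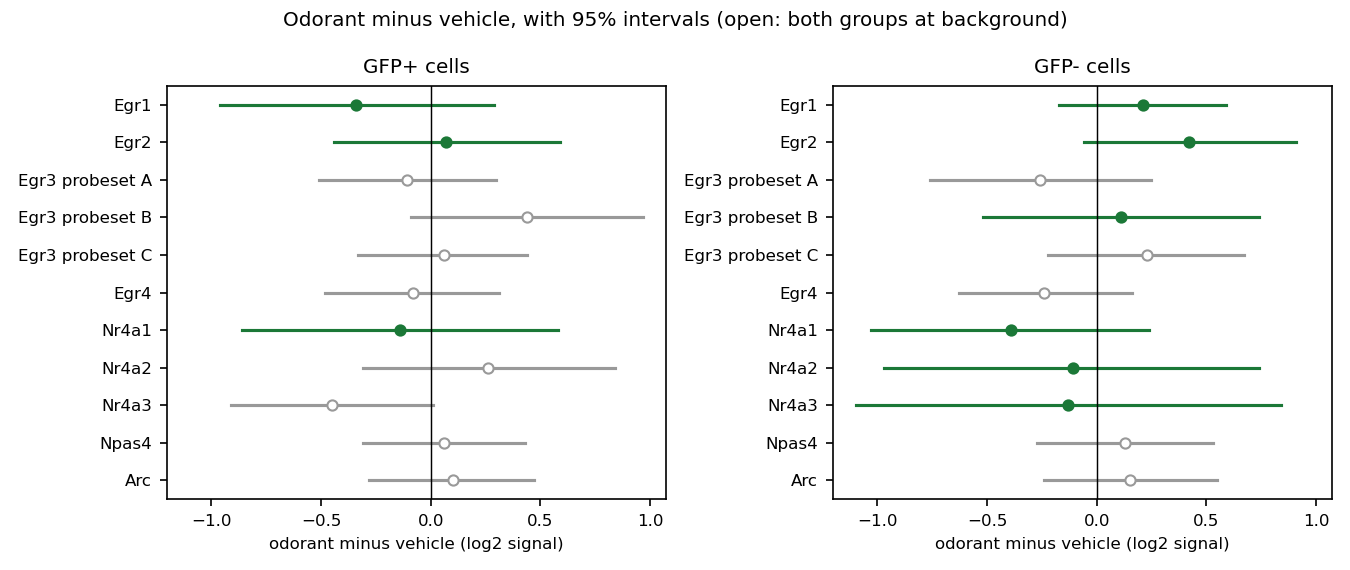
Odorant minus vehicle difference in log2 signal (horizontal axis) with its 95% interval for the 11 probesets (vertical axis), in GFP+ cells on the left and GFP- cells on the right, open points where both groups were at background. Every interval spans 0, as for Egr2 in GFP- cells at 0.42 (-0.06 to 0.91).

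The order of the 4 groups was the same in outline for each measured member. For Egr1, Egr2, Nr4a1, Nr4a2 and Nr4a3 both GFP- groups stood above both GFP+ groups, and no difference between the treatments within a fraction passed the test. For Nr4a2 and Nr4a3 the 2 GFP+ groups, both at background, have no order. Levels of different probesets are not compared with each other here, since each probeset has its own response.

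The GFP- pools also differed among themselves. Odorant pool 1 had the highest GFP- value of its group in Egr2, Egr3 probeset B, Nr4a1, Nr4a2 and Nr4a3, by 0.41, 0.65, 0.78, 0.91 and 1.41 over the group mean. Vehicle pool 4 was the lowest of its group in Egr1, Nr4a1 and Nr4a2, at -0.42, -0.41 and -1.13 from the mean. With each group's mean removed, the correlation over the 16 arrays was -0.06 for Egr1 with Egr2, 0.32 for Egr1 with Nr4a1 and 0.71 for Egr2 with Nr4a1. It is not given for the other members, whose GFP+ values all lay under background, and 3 of the 8 GFP+ values of Egr2 did too. These correlations are descriptions over arrays that share pools and scaling.

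Markers of other cells of the mucosa were also lower in GFP+ cells, in the same direction as the early genes. Of 10 neutrophil markers, 10 were lower in GFP+ cells in each treatment, as with Ngp, which averaged 6.50 ± 0.46 in GFP+ and 16.74 ± 0.70 in GFP- cells of odorant mice (SD, n = 4 each). The log2 of the summed neutrophil signal was 8.74 to 9.37 in GFP+ and 17.42 to 19.14 in GFP- cells with odorant, and 8.56 to 10.72 in GFP+ and 17.38 to 19.38 in GFP- cells with vehicle. In GFP+ cells with odorant, 8 of the 10 exceeded background on no array, among them S100a8, S100a9 and Elane. With vehicle this held for 6 of 10, among them S100a9, Mpo and Elane. Neutrophils are short-lived white blood cells, and Ngp, S100a8, S100a9 and Elane encode proteins of their granules and cytoplasm. The neutrophil sum was highest among the odorant GFP- pools in pool 1, at 19.14, the pool with the highest Nr4a values and the highest sustentacular sum (17.73), and lowest among the vehicle GFP- pools in pool 4, at 17.38. These pools did not stand apart in neutrophil markers alone. Odorant pool 1 also had the highest immature neuron, macrophage, microvillar, Bowman gland and endothelial sums of its group, and vehicle pool 4, lowest also in the globose basal sum (9.71), was highest in the sustentacular (17.15), microvillar (13.10) and immature neuron (16.32) sums. The part of any of these in the levels of the Egr and Nr4a genes was not tested.

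Markers of other cell classes were counted in the same way, with summed log2 signals over both treatments, against the shares of all probesets called lower given above. Of 6 immature neuron markers 5 were lower in GFP+ cells with odorant and 6 with vehicle. Their sums were 14.97 to 15.57 in GFP+ and 15.56 to 16.32 in GFP- cells. Gng8 and Nhlh1 exceeded background on no GFP+ array. Of 6 microvillar and tuft cell markers 6 were lower in each treatment (7.97 to 8.65 in GFP+ and 11.53 to 13.10 in GFP- cells). In each treatment 1 of these microvillar and tuft calls was at background in both fractions. On no GFP+ array did 5 of the 6 exceed background, Trpm5 and Ascl3 among them. Of 4 globose basal and cell cycle markers 4 were lower in each treatment (6.79 to 7.52 in GFP+ and 9.60 to 11.90 in GFP- cells). All 4 were at background in GFP+ cells, and Neurog1 was at background in both fractions. Top2a did not pass with the pool as a block under odorant (limma adjusted p = 0.065). It also missed under quantile normalization (limma adjusted p = 0.13 with odorant, 0.12 with vehicle), subtraction of medians (0.061 and 0.066), and without some single replicates. Of 6 sustentacular markers 1 was lower with odorant and 5 with vehicle (14.24 to 16.33 in GFP+ and 16.21 to 17.73 in GFP- cells), and with the pool as a block Cyp2g1, Cyp2a5 and Cyp1a2 also passed with odorant (limma adjusted p = 0.032, 0.01 and 0.0019). Of 4 Bowman gland markers 3 were lower in each treatment (7.79 to 8.46 in GFP+ and 10.21 to 11.18 in GFP- cells), of 5 lymphocyte markers 4 with odorant and 5 with vehicle (6.44 to 6.67 in GFP+ and 7.62 to 8.96 in GFP- cells, with 4 of those 4 and 4 of those 5 at background in both fractions), and of 7 macrophage markers 2 with odorant and 1 with vehicle (9.31 to 10.82 in GFP+ and 9.70 to 10.88 in GFP- cells). With odorant, 1 of the 2 macrophage calls was at background in both fractions. Alas2, the erythroid marker, was lower in both treatments. With odorant it missed under quantile normalization (limma adjusted p = 0.1), in 1 fit of all arrays (0.058), and without replicate 1 (0.2) or 3 (0.074). The calls of Aqp5, Bpifa1, Csf1r, Dcn, Ano2 and Adcy3 likewise did not hold in every alternative. Of 7 endothelial and stromal markers 0 were lower with odorant and 1 with vehicle, and 0 of 4 horizontal basal markers were called. Of 8 mature olfactory neuron markers 1 was higher in GFP+ cells with odorant and 2 with vehicle, with sums between 20.85 and 21.07 on all 16 arrays. The part of these cells in the levels of the early genes was not tested.

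**Figure D4:**
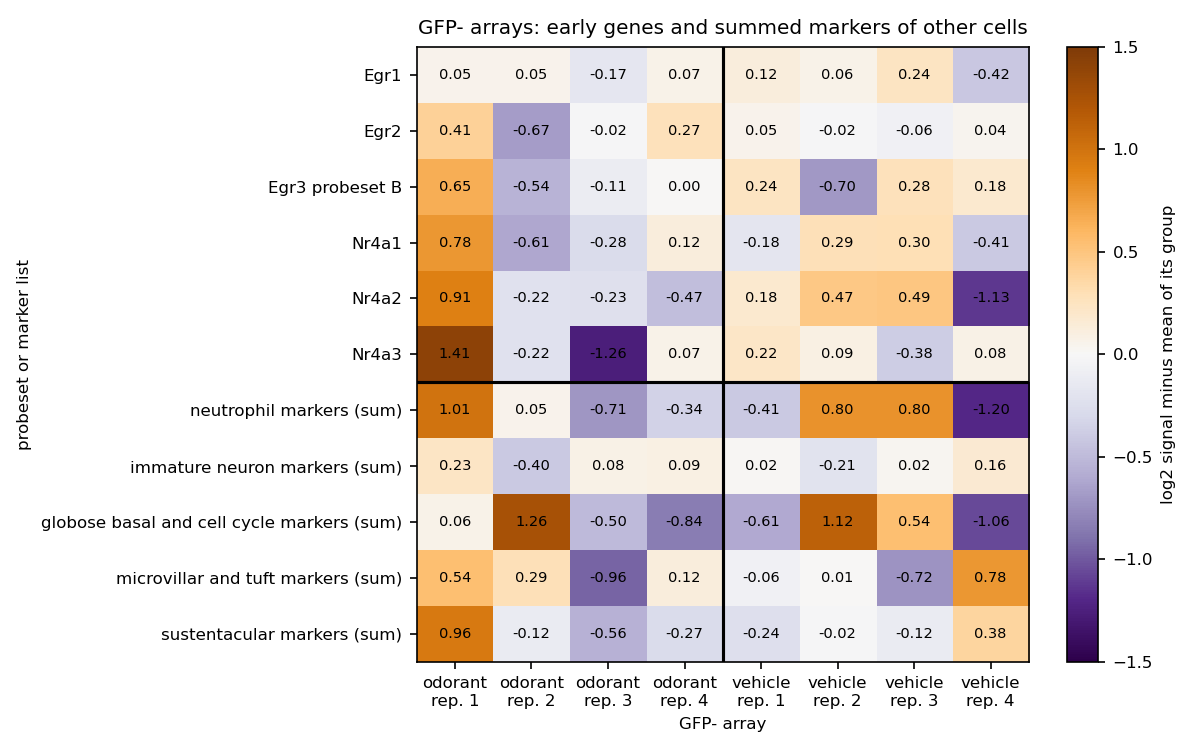
Log2 signal minus the mean of its group on the 8 GFP- arrays (columns, odorant left of vehicle, replicates 1 to 4) for 6 early gene probesets (upper rows) and the summed markers of 5 other cell classes (lower rows), orange above and purple below the mean. Odorant replicate 1 is above the mean in all 6 probesets, though in Egr1 by 0.05, and in all 5 marker sums. These sums are neutrophil (1.01), sustentacular (0.96), microvillar (0.54), immature neuron (0.23) and globose basal (0.06). Vehicle replicate 4 is below the mean in Egr1, Nr4a1, Nr4a2, the neutrophil sum (-1.20) and the globose basal sum (-1.06). That replicate is above the mean in the microvillar (0.78), sustentacular (0.38) and immature neuron (0.16) sums.

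Other genes of the pathway were counted in lists by role, each read against the share of all probesets called, 7.84% lower and 3.57% higher with odorant, and 9.97% lower and 7.76% higher with vehicle. Of 32 other immediate early genes with a probeset, from 33 listed, 20 were lower and 0 higher in GFP+ cells with odorant, and 21 were lower and 0 higher with vehicle, of which 18 were lower in both. In each treatment 1 of these calls was at background in both fractions. Their median difference was -1.54 with odorant and -1.46 with vehicle. Btg2, an antiproliferative gene, averaged 7.20 ± 0.38 in GFP+ and 12.36 ± 0.58 in GFP- cells of odorant mice (SD, n = 4 each), 35.6-fold lower (limma adjusted p = 6e-07). Fosb, which encodes a subunit of the AP-1 factor, averaged 8.04 ± 0.41 in GFP+ and 12.90 ± 0.64 in GFP- cells of odorant mice, 29.1-fold lower (limma adjusted p = 1.5e-06). Ptgs2, the inducible cyclooxygenase, and Plk2, a kinase induced by neuronal activity, were at background in GFP+ cells and at least 2.85-fold and at least 7.3-fold lower there with odorant. The called genes of this list were thus all lower in GFP+ cells, as were the called Egr and Nr4a probesets. Others, such as Jund, Ier5 and Maff, were not called and were nominally higher in both treatments. The list was chosen with earlier results of these data known, so its counts are a description.

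The activators upstream of the early genes differed little between the fractions. Of 28 such genes with a probeset, from 34 listed symbols with older names included, 2 were lower and 0 higher in GFP+ cells with odorant, and 2 lower and 1 higher with vehicle. Camk2b, a calcium-dependent kinase subunit, was at least 1.51-fold lower with odorant and at least 2.15-fold lower with vehicle. For the values as deposited the limma adjusted p was 0.0019 and 0.0023. Mef2c, a factor that binds early gene promoters, averaged 5.40 ± 0.37 in GFP+ and 6.67 ± 0.40 in GFP- cells of odorant mice (SD, n = 4 each; limma adjusted p = 0.0042) and was close to background. The higher call was Camk4, at background in both fractions. The list's median difference was 0.0 with odorant and 0.09 with vehicle, and its share of calls was no higher than that of all probesets.

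Binding partners and corepressors of the Egr and Nr4a proteins, 11 of 12 with a probeset, gave 0 calls with odorant and 1 higher and 1 lower call with vehicle, with medians of 0.11 and -0.07. Rxrb, a retinoid X receptor of the type that pairs with Nr4a1 and Nr4a2, averaged 9.27 ± 0.084 in GFP+ and 8.80 ± 0.12 in GFP- cells of vehicle mice (SD, n = 4 each; limma adjusted p = 0.031). Without any 1 of the 4 vehicle replicates that adjusted p was between 0.077 and 0.16. The lower call, Arnt2, which pairs with Npas4, was at background in both fractions.

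The targets of cAMP and CREB did not move as one. Of 14 with a probeset, from 16 listed, 1 was higher and 3 lower in GFP+ cells with odorant, and 3 higher and 4 lower with vehicle, with medians of 0.11 and -0.04. Of these calls 2 with odorant and 1 with vehicle were at background in both fractions. Sik1, called lower in both treatments, and Dusp1, not called, are also counted among the other immediate early genes. Rgs2, which ends signalling of G proteins, was at least 2.96-fold lower with odorant (limma adjusted p = 1.2e-05) and at least 5.12-fold lower with vehicle. Pde4b, which breaks down cAMP, was at background in both fractions with odorant and at least 1.15-fold lower with vehicle. Its limma adjusted p of 0.00013 with vehicle, like that of Rgs2, tests the values as deposited and not the bound. In the opposite direction, Nptx2, a secreted synaptic pentraxin, averaged 11.57 ± 0.13 in GFP+ and 10.40 ± 0.055 in GFP- cells of vehicle mice, 2.26-fold higher (limma adjusted p = 0.00011). Ppargc1a, a coactivator of mitochondrial genes, averaged 14.35 ± 0.19 in GFP+ and 13.40 ± 0.22 in GFP- cells of vehicle mice, 1.93-fold higher (limma adjusted p = 0.0021). With odorant their adjusted p was 0.31 for Nptx2 and 0.18 for Ppargc1a. In the odorant effects of both fractions and in the interaction, 0 genes of these 4 lists were called.

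**Figure D5:**
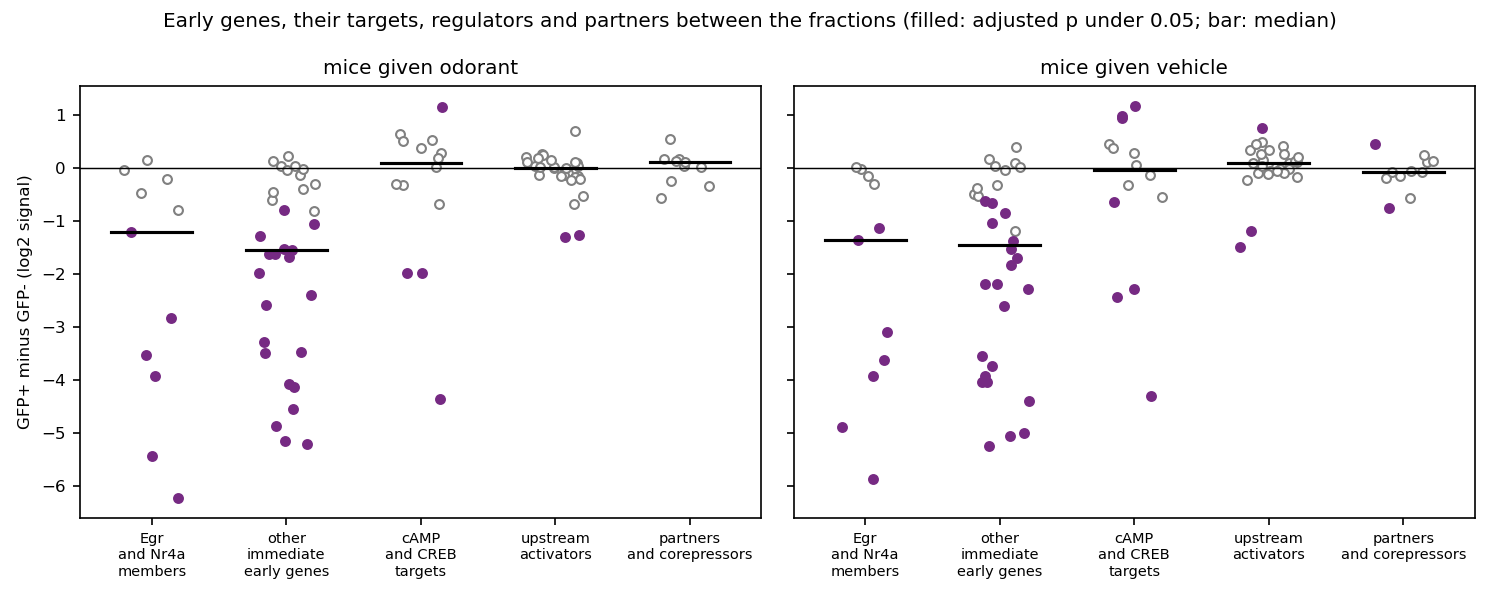
GFP+ minus GFP- difference in log2 signal (vertical axis) for each probeset of the Egr and Nr4a members and of 4 related lists (horizontal axis), mice given odorant on the left and vehicle on the right, filled where the adjusted p is under 0.05, with bars at the medians. With odorant the members reach down to -6.22 for Egr2, the other immediate early genes have a median of -1.54, and the upstream activators cluster around 0.0. The members' bar lies on Egr3 probeset A, which was at background in both fractions.

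The genes whose pattern was most like that of the members were ranked by Pearson's correlation with the mean standardized signal of the 6 probesets above background on at least 4 arrays, among 10372 candidate probesets over 16 arrays. For 3 of the 6, Egr3 probeset B, Nr4a2 and Nr4a3, every GFP+ value lay under background, so they entered through GFP- arrays alone. A high correlation before the group means are removed is thus largely set by the division into fractions. As deposited, the ranking was led by Stard5 (0.989), Fosb (0.987), Hepacam2 (0.986), Ifitm2 (0.984) and Adgrg6 (0.984). With each group's mean removed, so that the division into fractions no longer counts, it was led by Minpp1 (0.859), Mrps22 (0.837), Rgs10 (0.828), Dnttip1 (0.824) and Jaml (0.815). The 2 rankings shared no name among their leading 5. Both rankings take in the GFP+ values under background of those 3 probesets. The points share pools and scaling, and the values are descriptions.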

How the data were processed

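Each of the 16 Clariom S arrays, 4 per group, took biotinylated cRNA prepared out of 50 to 100 ng RNA, per the labels' protocols. The deposited values are log2 probeset signals made by the authors with Affymetrix Expression Console, per the submitters' processing notes. The version of that program, the normalization and the genome build were not given in the sources used here. No further scaling was applied. Of 28846 probesets 6640 controls were left out, and 22206 were tested, of which 19572 carry 1 symbol, 0 several and 2634 none. Comparisons of the 4 groups were fitted with limma 3.58.1 in R 4.3.3 (lmFit and eBayes, only the groups compared, two-sided, Benjamini-Hochberg over all 22206, threshold 0.05), and the interaction over all 16 arrays. These fits, the interaction included, took no account of the pairing of fractions within pools, and the replicate block was an alternative. With that block the limma interaction had 1460 probesets at an unadjusted p under 0.05, against 1093 without it, and 0 called. The fits were tested on simulated data with independent noise on each array. Such data hold no pairing within pools, so they cannot test the fits without the block in that respect. A fold against a group at background uses the background level in place of lower values and is a bound. An adjusted p beside such a fold tests the deposited values, and no bound was tested. The number of arrays limits the precision.

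The members and the lists (upstream activators, partners and corepressors, cAMP and CREB targets, other immediate early genes, and 12 lists of cell markers) were chosen with earlier results of these data known. Named list genes are at most 4 called per list, by p in the vehicle fraction comparison. Of each likeness ranking the leading 5 are named. Fractions of the same number are paired, since 24 mice at 3 per array pair make 8 pools. This pairing is inferred. Deviations of same-numbered fractions correlated at 0.014 to 0.36 with odorant and 0.11 to 0.16 with vehicle. For odorant replicates 1 and 4 an array of another number in the other fraction correlated at 0.152, above the same number at 0.014 and 0.137. Across treatments the number is only a number, with -0.034 to 0.25 in GFP+ and -0.1 to 0.3 in GFP- cells. Alternatives were other scalings, a filter on dim probesets, the replicate block, 1 fit of all arrays, and leaving out pools. Promoter letters come from RefSeq windows of GRCm38.p6.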

Additional observations from a re-analysis of the deposited data

Results flagged for a closer look

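In 5 of 44 groups of 4 arrays, the highest or lowest array stood apart from the other three by more than Dixon's 95% critical value for the gap over the range. Chance gives about 1 such group in 20. Egr1 in odorant GFP- cells was lowest in replicate 3, at 13.52, within a group whose SD was 0.11. Egr3 probeset B in vehicle GFP- cells was lowest in replicate 2, at 6.34, the only array of that group under its background level. Nr4a3 in vehicle GFP+ cells was highest in replicate 2, at 5.05, Npas4 in vehicle GFP+ cells in replicate 4, at 3.45, and Npas4 in odorant GFP- cells in replicate 4, at 3.69, and all 3 of these values lie under background.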

How the results depend on the processing

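Over 61 alternatives, the number of members called stayed at 5 to 7 of 11 for the fractions with odorant and at 6 to 7 with vehicle, and at 0 for both odorant effects and the interaction. The probesets of Egr1, Egr2, Nr4a1, Nr4a2 and Nr4a3 passed the test between the fractions in every alternative of both treatments. With the replicate block, by pool, Egr3 probeset B passed with odorant (limma adjusted p = 0.0094), and no other call of a member changed. With vehicle it no longer passed under quantile normalization (0.079), or without pools numbered 4 (0.057). Leaving out 1 replicate at a time moved these differences across 0, none of which passed a test: the odorant effect in GFP+ cells between -0.079 and 0.21 for Egr2 and between -0.41 and 0.0935 for Nr4a1, that in GFP- cells between -0.12 and 0.29 for Egr3 probeset B, between -0.49 and 0.0468 for Nr4a2 and between -0.6 and 0.29 for Nr4a3, and the Nr4a1 interaction between -0.0475 and 0.75. Without the pools numbered 4 the Egr2 effect in GFP+ cells was -0.0297. Under quantile normalization the Omp difference between fractions with vehicle was -0.0409. After subtraction of medians Omp was 0.41 higher in GFP+ cells in each treatment (limma adjusted p = 0.037 with odorant and 0.022 with vehicle). The cause of these shifts was not tested. Over all probesets, subtraction of medians gave 9277 calls between the fractions with odorant and 12050 with vehicle, against 2535 and 3936 as deposited. Leaving out vehicle replicate 1 or 2 gave 2610 or 2479 with vehicle, and leaving out vehicle replicate 4 gave 3 calls for the odorant in GFP+ cells, as did leaving out the pools numbered 4. Setting GFP+ arrays of Egr2 under background at their level, a choice made after seeing the data, gave 66.4-fold with odorant and 55.1-fold with vehicle. Subtraction of medians shifts every level by its construction and lowered the centred likeness of Dnttip1 to 0.768. Nothing below background can be ranked or compared, which covers Egr4, Npas4, Arc, Egr3 probesets A and C, and the GFP+ levels of Nr4a2 and Nr4a3.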
